A study of Mus musculus with 4 samples.

Results

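The mitochondrial genome transcripts are the genes whose name in the count table starts with mt-, and 37 of 55367 gene names met this rule. They are 13 protein-coding genes (mRNAs), 2 ribosomal RNA genes (rRNAs) and 22 transfer RNA genes (tRNAs), and the 3 classes are described apart. The RNA came from endothelial cells sorted by FACS (CD31 present, CD45 absent) from subcutaneous tumours of KPC cells, a mouse pancreatic cancer line, grown in C57BL/6 mice. The control IgG group received control rat IgG and the anti-CD93 group an antibody to CD93, a receptor on the surface of endothelial cells, each by intraperitoneal injection 48 hours before the cells were taken. Both groups carried the same tumour and went through the same enzymatic digestion and sort. There were 2 libraries per group. Whether the libraries of a group came from different mice is not in the labels, so a p-value here reflects only how far these libraries spread, which may be technical.

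The mouse mitochondrial genome is a small circle that is copied into RNA from both strands as long transcripts. Most tRNA genes sit between the other genes, and cutting the tRNAs out at both ends releases the rRNAs and mRNAs. The mRNAs encode core subunits of respiratory chain complexes I, III and IV and of the ATP synthase (complex V), and the 12S (mt-Rnr1) and 16S (mt-Rnr2) rRNAs form the ribosome that translates them. All other proteins of these machines are encoded in the nucleus. Stretches of mitochondrial DNA have also been copied into nuclear chromosomes in the past, where they remain as pseudogenes.

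The sequences come first, because reads that match a nuclear copy equally well cannot be assigned to 1 gene. An annotated block of 7 unprocessed pseudogenes lies on the minus strand of chr1:24611535-24616197 (GRCm38) and copies mt-Co1 from base 1054 to its end, mt-Co2, mt-Atp6, mt-Co3, mt-Nd3, mt-Nd4l and the first 876 bases of mt-Nd4. 5 of the 7 copies were identical to the mitochondrial gene over the whole aligned length in the GENCODE vM21 transcripts. The other 2 differed only near their start, and those stretches are shown because a read has few other bases by which to tell gene and copy apart. Capitals mark the differing bases, and each sequence is written along the strand of its gene.
mt-Co1, bases 1054 to 1113, chrM:6381-6440, plus strand: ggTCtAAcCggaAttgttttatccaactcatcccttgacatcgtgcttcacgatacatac
Gm29216, chr1:24616138-24616197, minus strand: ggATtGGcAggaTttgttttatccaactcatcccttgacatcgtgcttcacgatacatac
mt-Nd3, bases 1 to 40, chrM:9459-9498, plus strand: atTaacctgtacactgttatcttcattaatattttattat
Gm28438, chr1:24613080-24613119, minus strand: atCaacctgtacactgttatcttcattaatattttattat
Counted from the first base of each mitochondrial gene, the 6 differences in mt-Co1 were T1056A, C1057T, A1059G, A1060G, C1062A and A1066T (identity 98.8% over 492 aligned bases), and the difference in mt-Nd3 was T3C (identity 99.7% over 345 aligned bases). 

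Gene models also overlap within the mitochondrial genome. The models of mt-Atp8 and mt-Atp6 share 43 bases, which matters because a read touching both models belongs to neither without an overlap option in the counting command.
mt-Atp8 and mt-Atp6, chrM:7927-7969, plus strand: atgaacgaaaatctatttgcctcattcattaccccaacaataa
mt-Nd6, the one mRNA gene on the minus strand (chrM:13552-14070), shares 14 bases with mt-Nd5 on the plus strand.
mt-Nd5 and mt-Nd6, chrM:13552-13565, plus strand: ttaatctcgagtaa
The command recorded in the file header has no option for reads that align to several places, for overlapping genes or for strand. Reads from mt-Nd6 and from RNA of the other strand across it therefore cannot be told apart. 

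The levels of the 13 mRNAs split along these lines. Levels are compared between genes as CPM per kb of gene, where CPM stands for reads per 1e6 reads of all tested genes, scaled by TMM. mt-Co1, the catalytic subunit of complex IV (chrM:5328-6872), was the highest at 1484 to 1778 CPM per kb over the 4 libraries. mt-Cytb, the cytochrome b of complex III, followed at 649.2 to 1125 CPM per kb, with no overlap with mt-Co1. The complex I genes mt-Nd1, mt-Nd6, mt-Nd5, mt-Nd2 and mt-Nd4 then ranked in that order by mean, from a median of 650.4 CPM per kb for mt-Nd1 to 279.3 for mt-Nd4. Over the 4 libraries, each of these 5 overlapped its neighbour in this order. Compared within each library, per kb of full gene length, mt-Nd6 was always above mt-Nd5 and mt-Nd5 always above mt-Nd2. The order of mt-Nd1 and mt-Nd6, and of mt-Nd2 and mt-Nd4, changed between libraries. Some genes further apart did not overlap at all, per kb of full gene length. The lowest mt-Nd1 (532.1 CPM per kb) was above the highest mt-Nd5 (480.9), mt-Nd2 (368.7) and mt-Nd4 (343.8). The lowest mt-Nd6 (419.3) was above the highest mt-Nd2 and mt-Nd4.

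The other 6 mRNAs all lay far below. mt-Co2, a copper-binding subunit of complex IV, was at 17.1 to 34.4 CPM per kb. mt-Atp6 and mt-Atp8, both subunits of the ATP synthase, were at 9.18 to 14.2 and 5.77 to 13.6 CPM per kb. mt-Nd3 (2.77 to 8.77), mt-Co3 (2.73 to 4.37) and mt-Nd4l (2.20 to 4.38 CPM per kb) closed the order, with overlapping ranges. The lowest level of mt-Nd4, 188.1 CPM per kb, stood above the highest of mt-Co2, 34.4 CPM per kb. Together these 6 genes held 428, 246, 713 and 471 reads in control IgG replicates 1 and 2 and anti-CD93 replicates 1 and 2, or 0.549% to 0.615% of the mRNA reads.

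**Figure D1:**
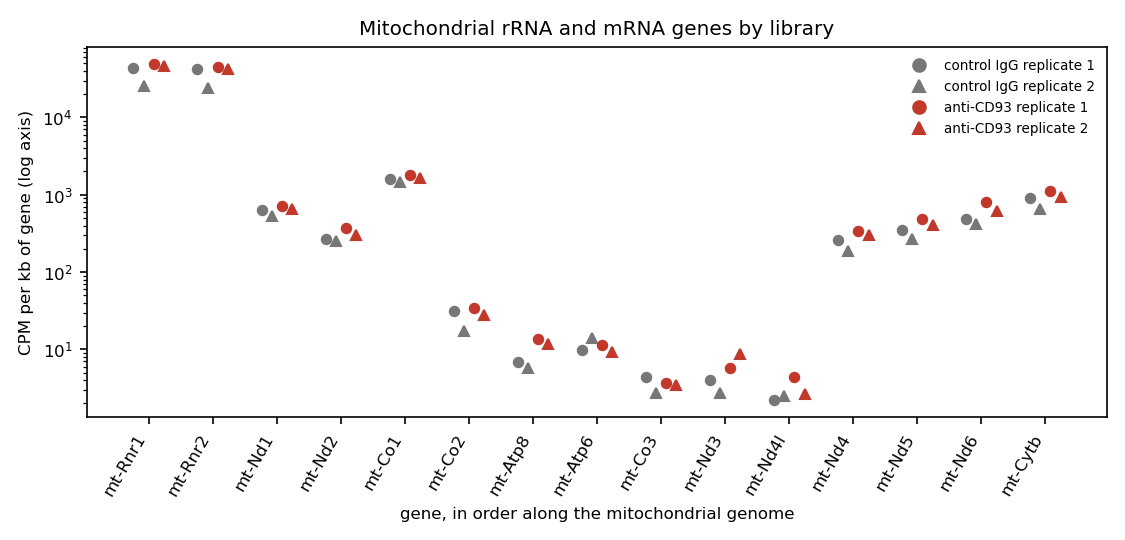
CPM per kb of gene (log axis) for the 2 rRNA and 13 mRNA genes in each of the 4 libraries, in order along the mitochondrial genome. The block from mt-Co2 to mt-Nd4l sits at 34.4 CPM per kb or lower, while its neighbours mt-Co1 and mt-Nd4 are at 188.1 or higher.

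5 of the 6 low genes were those with a full-length nuclear copy. Of all windows of 100 bases, 99.5% in mt-Co2, 99.5% in mt-Atp6, 99.9% in mt-Co3, 97.6% in mt-Nd3 and 98.5% in mt-Nd4l occurred in an annotated nuclear transcript. The share was 60.8% in mt-Nd4, 30.8% in mt-Co1 and 3.2% in mt-Nd2, and 0% in mt-Nd1, mt-Nd5, mt-Nd6, mt-Cytb and both rRNAs. mt-Atp8 was the exception: it was low with no such window, at a gene length of 204 bases, of which 43 lie in the overlap printed above. Reads were 150 bases long, and the copies of its neighbours, Gm10925 and Gm28661, lie 233 bases apart with no annotated copy of mt-Atp8 between them. Whether that stretch of chromosome 1 carries its sequence was not tested, since only annotated transcripts were searched.

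Counted over the 502 bases of mt-Nd4 outside shared windows, the level of this gene was 711.6, 516.3, 943.8 and 821.6 CPM per kb in control IgG replicates 1 and 2 and anti-CD93 replicates 1 and 2, against 259.2, 188.1, 343.8 and 299.3 over its full length. The same step put mt-Co1 at 2858 to 3426 CPM per kb, over 802 bases. On that scale the range of mt-Nd4 overlapped those of mt-Nd1, mt-Nd6 and mt-Cytb. The highest mt-Nd2 (421.1 CPM per kb, anti-CD93 replicate 1) then lay just above the lowest mt-Nd6 (419.3, control IgG replicate 2). Yet mt-Nd2 stayed below mt-Nd6 within each library (307.9, 287.1, 421.1 and 340.9 against 488.3, 419.3, 807.9 and 623.4 CPM per kb). Against mt-Nd5, mt-Nd2 was higher in control IgG replicate 2 only (287.1 against 267.5). The lower place of mt-Nd4 against mt-Nd1 and mt-Nd6 thus holds only per kb of full length. The calculation gives all reads of the gene to those bases, so it is an upper reading. The nuclear copies themselves held 231, 143, 453 and 297 reads in the 4 libraries in the same order. The 7 mRNAs mt-Nd1, mt-Nd2, mt-Co1, mt-Nd4, mt-Nd5, mt-Nd6 and mt-Cytb are called the readable mRNAs from here on, a split chosen after their values were seen.

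**Figure D2:**
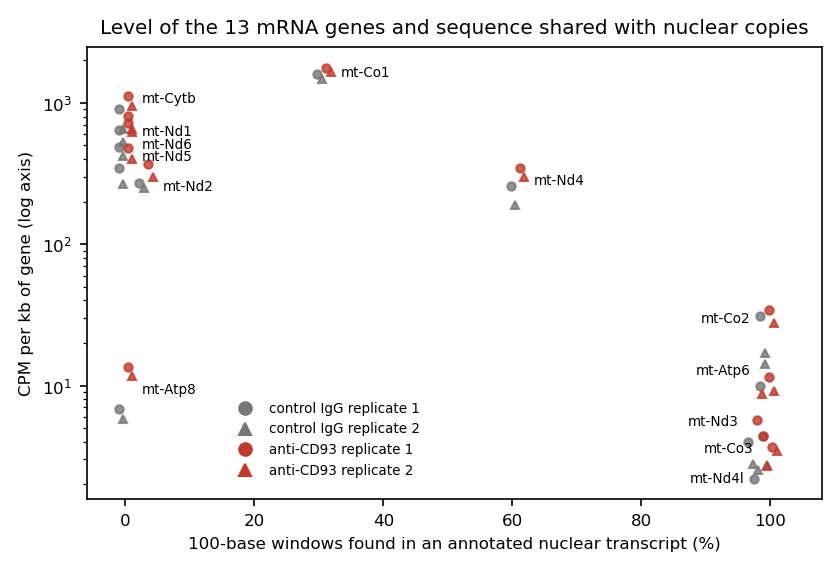
CPM per kb of gene (log axis) in each library against the share of 100-base windows found in an annotated nuclear transcript (%), for the 13 mRNA genes. The 5 genes at 97.6% or more lie at the bottom, and mt-Atp8 lies there at 0%; points are spread sideways slightly by library.

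One control library stood apart. The fewest assigned reads (9364294, against 12264231 to 17813993), the most detected genes (27718, against 23796 to 25430) and the highest summed CPM of olfactory and vomeronasal receptor genes (359.6, against 52.0 to 56.6) were all in control IgG replicate 2. The rRNA share and the medians of the mRNAs and gene lists are therefore also given without it, with 1 control library remaining, and without control IgG replicate 1. Endothelial markers summed to 7426 to 9105 CPM of all reads, far above leukocyte markers at 16.1 to 31.0 CPM, while tumour epithelial markers reached 1614 to 2342 CPM and fibroblast markers 1750 to 2828 CPM. By group they were 7655 and 9105 CPM against 7458 and 7426 for endothelial markers, 1614 and 2342 against 2277 and 1894 for epithelial markers, and 2102 and 2828 against 1750 and 2189 for fibroblast markers, controls first. Of the 7 epithelial markers, 3 had an unadjusted edgeR p under 0.05 with a higher value (Epcam, Cdh1 and Muc1, named after their values were seen), and of the 5 tested erythroid markers 2 globin genes did, against 1.99% of all tested genes. Over the whole lists, 5 epithelial markers were estimated higher and 2 lower, and 4 erythroid markers higher and 1 lower. The epithelial median was 0.05, with 0.37 and 0.21 without control IgG replicates 2 and 1 in turn. Of the 8 endothelial markers 1 was estimated higher and 7 lower, 1 of these with an unadjusted edgeR p under 0.05. In 6 of the 8 both anti-CD93 libraries were below both controls, against 19.7% of all tested genes. None of these markers passed the adjusted test. Erythroid markers summed to 9.21 and 19.9 CPM in the controls and 28.2 and 18.8 CPM with anti-CD93. Pericyte and smooth muscle markers summed to 387.9 and 366.3 CPM against 461.5 and 345.8 CPM. The part of these cell types in the mitochondrial values was not tested, and in bulk RNA fewer cells of a type and less RNA per cell cannot be told apart.

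The rRNAs took most of the mitochondrial reads. Their share of assigned reads was 11.0% (exact 95% binomial interval 10.96 to 10.99) in control IgG replicate 1, 6.20% (6.19 to 6.22) in control IgG replicate 2, and 11.8% (11.76 to 11.79) and 11.1% (11.05 to 11.08) in anti-CD93 replicates 1 and 2. Control IgG replicate 2 was low and the other 3 libraries lay close together, yet both anti-CD93 libraries were above both controls. All mitochondrial reads together came to 11.5%, 6.68%, 12.5% and 11.7%. The difference between group means was 2.96 percentage points of assigned reads, and it was 0.53 points without control IgG replicate 2 and 5.39 points without control IgG replicate 1. With 2 libraries against 2, an exact permutation test cannot go below a two-sided p of 0.333, so no such test is given. The intervals address counting error only. They are too narrow even for that, since mates of 1 fragment were counted singly and reads carried no molecular identifiers in the table. The library kit removes ribosomal cDNA by probe-directed cleavage before amplification, and how complete that step was in each library was not tested.

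mt-Rnr1 (chrM:70-1024), the 12S rRNA of the small ribosomal subunit, measured 42090 and 24450 CPM in the controls and 47130 and 44530 CPM in the anti-CD93 libraries. The groups did not overlap, and the low library was again control IgG replicate 2. The log2 fold change of anti-CD93 against control IgG was 0.46 ± 0.26 (SE, n = 2 per group), with adjusted p = 0.812 by edgeR's quasi-likelihood test with Benjamini-Hochberg adjustment. mt-Rnr2 (chrM:1094-2675), the 16S rRNA of the large subunit, measured 67690 and 37740 CPM in the controls and 71370 and 66500 CPM in the anti-CD93 libraries. Here the groups overlapped, because control IgG replicate 1 was above anti-CD93 replicate 2. Its log2 fold change was 0.39 ± 0.27 (SE) with adjusted p = 0.812 in the same edgeR test. Without control IgG replicate 2 the log2 fold changes were 0.12 for mt-Rnr1 and 0.03 for mt-Rnr2, and without control IgG replicate 1 they were 0.91 and 0.87.

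Per base the 2 rRNAs were nearly level: mt-Rnr2 over mt-Rnr1, per length, was 0.971 and 0.932 in the controls and 0.914 and 0.901 in the anti-CD93 libraries. Both anti-CD93 libraries had the lower ratio, but the nearest libraries (0.932 and 0.914) lay closer together than the 2 controls. Reads of rRNA per read of mRNA numbered 19.3 and 12.97 in the controls and 17.1 and 18.2 in the anti-CD93 libraries. The controls bracketed the anti-CD93 libraries, and the log2 difference of this ratio was 0.16 with all libraries, -0.13 without control IgG replicate 2 and 0.45 without control IgG replicate 1. Counted against only mt-Nd1, mt-Nd5, mt-Nd6 and mt-Cytb, the 4 readable mRNAs with no shared window, the ratio was 43.2 and 31.8 against 36.2 and 40.1.

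**Figure D3:**
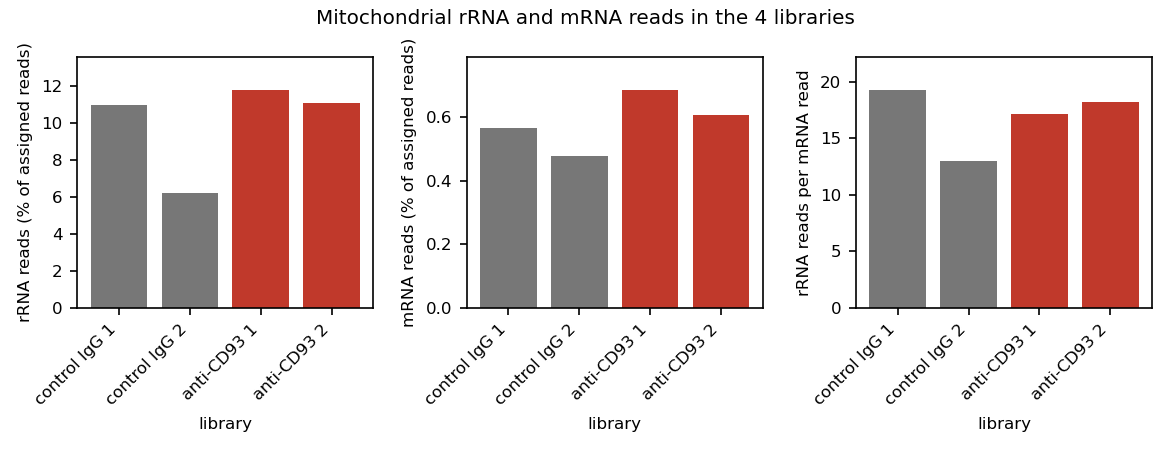
Reads of the 2 rRNA genes and of the 13 mRNA genes (% of assigned reads) and rRNA reads per mRNA read, 1 bar per library, controls in grey and anti-CD93 in red. Control IgG replicate 2 is lowest in all 3 panels, at 6.20%, 0.478% and 12.97.

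mRNA reads made up 0.568% and 0.478% of assigned reads in the controls and 0.688% and 0.606% in the anti-CD93 libraries. Both anti-CD93 libraries were above both controls. In the edgeR fit, 18 of the 37 genes passed the filter on low counts: all 13 mRNAs, both rRNAs and 3 tRNAs. None of the 18 passed an adjusted p under 0.05, as none of all 16945 genes tested did (0%; smallest adjusted p 0.812, with 761 genes at an unadjusted p under 0.05). Both anti-CD93 libraries were above both controls for 11 of the 18, a pattern that 20.1% of all tested genes showed. Those 11 were mt-Rnr1 and 10 mRNAs, including all 7 readable ones. Among them mt-Nd4l met the count filter only through its anti-CD93 libraries, where it is higher. Its place among the 11 is therefore not independent of that filter. 3 of the 18 had an unadjusted edgeR p under 0.05 and a higher value with anti-CD93, against 1.99% of all tested genes, and these were mt-Nd6, mt-Nd5 and mt-Nd4. The median log2 fold change was 0.41 over the 13 mRNAs and also 0.41 over the 7 readable ones, beside -0.01 over all genes tested. The genes share long precursor transcripts, so these counts are not counts of independent genes.

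Of the complex I mRNAs, mt-Nd6 differed most among the readable genes. It measured 253.4 and 217.6 CPM in the controls and 419.3 and 323.5 CPM in the anti-CD93 libraries, so the groups did not overlap. The log2 fold change was 0.66 ± 0.20 (SE, n = 2 per group), with unadjusted p = 0.0102 and adjusted p = 0.812 by edgeR's quasi-likelihood test. mt-Nd5 (chrM:11742-13565), a proton-pumping subunit, measured 634.3 and 487.8 CPM in the controls and 877.2 and 733.1 CPM with anti-CD93. It too was above both controls in both anti-CD93 libraries, with a log2 fold change of 0.52 ± 0.20 (SE), unadjusted p = 0.0303 and adjusted p = 0.812 by edgeR. mt-Nd4 (chrM:10167-11544), another proton-pumping subunit, measured 357.2 and 259.2 CPM against 473.8 and 412.4 CPM. Its log2 fold change was 0.52 ± 0.21 (SE), with unadjusted p = 0.0345 and adjusted p = 0.812 by edgeR.

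The remaining readable complex I mRNAs differed less. mt-Nd2 (chrM:3914-4951) measured 279.9 and 261.0 CPM in the controls and 382.7 and 309.9 CPM with anti-CD93, a log2 fold change of 0.36 ± 0.18 (SE). mt-Nd1 (chrM:2751-3707), the subunit beside the quinone site, measured 614.9 and 509.3 CPM against 691.7 and 629.9 CPM, a log2 fold change of 0.23 ± 0.18 (SE). In both genes the groups did not overlap, and the nearest control and anti-CD93 libraries of mt-Nd1 were only 614.9 and 629.9 CPM. mt-Cytb (chrM:14145-15288) of complex III measured 1038 and 742.7 CPM against 1287 and 1083 CPM, a log2 fold change of 0.41 ± 0.21 (SE). mt-Co1 of complex IV had the smallest difference of the 7, at 2467 and 2292 CPM against 2747 and 2557 CPM, or 0.16 ± 0.17 (SE) on the log2 scale. The adjusted p by edgeR was 0.812 for mt-Nd2, mt-Nd1 and mt-Cytb and 0.844 for mt-Co1.

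The 6 low mRNAs varied more and rested on few reads. mt-Atp8 had 17 and 11 reads in the controls and 49 and 33 with anti-CD93, or 1.39 and 1.18 CPM against 2.77 and 2.40 CPM. mt-Nd3 had 17 and 9 reads against 35 and 42, or 1.39 and 0.964 CPM against 1.98 and 3.05 CPM. Both had the highest estimates among the mRNAs, log2 fold changes of 1.00 ± 0.51 (SE) and 1.07 ± 0.55 (SE), with adjusted p = 0.812 each by edgeR. mt-Nd4l had 8 and 7 reads against 23 and 11, or 0.653 and 0.749 CPM against 1.30 and 0.799 CPM, a log2 fold change of 0.59 ± 0.72 (SE). In these 3 genes the groups did not overlap, in the last by a narrow gap. Only the anti-CD93 libraries of mt-Nd4l met the count filter.

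mt-Co2, mt-Atp6 and mt-Co3 overlapped between the groups. mt-Co2 had 21.3 and 11.7 CPM in the controls and 23.6 and 19.0 CPM with anti-CD93, a log2 fold change of 0.36 ± 0.31 (SE). mt-Atp6 had 6.77 and 9.64 CPM against 7.796 and 6.25 CPM, or -0.22 ± 0.33 (SE). mt-Co3 had 3.43 and 2.14 CPM against 2.88 and 2.69 CPM, or -0.01 ± 0.46 (SE). Adjusted p by edgeR lay between 0.819 and 0.996 for these 3 genes. With the reads of the nuclear copies added, an alternative chosen after the data were seen, mt-Atp6 and mt-Co3 came to 0.01 and 0.20, and all 13 mRNAs were then higher with anti-CD93.

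**Figure D4:**
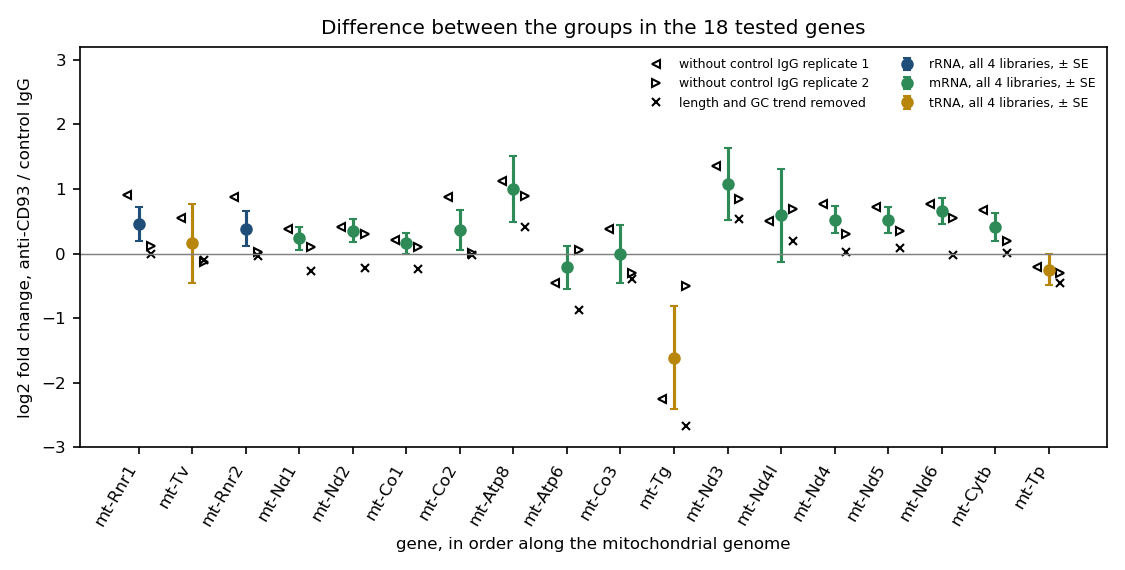
Log2 fold change of anti-CD93 against control IgG for the 18 tested genes, with bars of 1 SE around the estimate from all 4 libraries, and the estimates without each control library and with the length and GC trend removed. The 7 readable mRNAs lie above 0 with all libraries, higher without control IgG replicate 1, lower without control IgG replicate 2, and between -0.26 and 0.08 with the trend removed.

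Leaving out 1 control changed these estimates, and the mRNAs less so than the rRNAs. Without control IgG replicate 2 the median over the 13 mRNAs was 0.31, 7 of 7 readable mRNAs were still higher with anti-CD93, and mt-Nd6 stood at 0.55 with adjusted p = 0.454 by edgeR. The other readable mRNAs then stood at 0.34 (mt-Nd5), 0.31 (mt-Nd4), 0.31 (mt-Nd2), 0.19 (mt-Cytb), 0.10 (mt-Nd1) and 0.10 (mt-Co1). mt-Co2 stood at 0.00318 and mt-Tg stood at -0.51. None of the 18 genes was called in that fit, where 0.0767% of all tested genes were. Without control IgG replicate 1 the median was 0.67 and 9 of the 18 genes were called by edgeR: mt-Rnr1, mt-Rnr2, mt-Nd1, mt-Co2, mt-Nd4, mt-Nd5, mt-Nd6, mt-Cytb and, with a lower value, mt-Tg. The log2 fold changes were 0.38 for mt-Nd1, 0.87 for mt-Co2, 0.67 for mt-Cytb, 0.77 for mt-Nd4, 0.72 for mt-Nd5, 0.77 for mt-Nd6 and -2.26 for mt-Tg. That fit called 26.8% of all tested genes, and it sets both anti-CD93 libraries against the control library that stood apart. Without anti-CD93 replicate 1 the median of the 13 mRNAs was 0.21.

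With all 4 libraries the estimates varied with the base composition of the genes. Mitochondrial genes are poor in G and C: the 13 mRNAs hold 31.9% to 41.1% GC and mt-Rnr1 and mt-Rnr2 35.8% and 35.4%. Among tested nuclear genes with under 40% GC in their transcripts (822 genes), the median log2 fold change was 0.33, and 32.5% of them had both anti-CD93 libraries above both controls. The nuclear median was 0.23 between 40% and 45% GC (2868 genes), 0.08 between 45% and 50%, -0.10 between 50% and 55% and -0.26 at 55% or more (3787 genes). Without control IgG replicate 2 the same medians lay between -0.03 and 0.04, and without control IgG replicate 1 they ran from 0.84 in the lowest class to -0.45 in the highest. The median of the 13 mRNAs was 0.31 and 0.67 in these fits in turn. With the trend of each library with gene length and GC removed, the median of the 13 mRNAs turned to -0.02, mt-Rnr1 stood at -0.01, mt-Rnr2 at -0.04 and mt-Nd6 at -0.02, and 3 of the 7 readable mRNAs were higher with anti-CD93. GC content was taken from GENCODE vM21 transcripts for 98.1% of the tested genes. Length and GC were removed together, so the part of either alone in the difference between the groups was not tested.

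Within the mRNA reads the make-up differed slightly between the groups. mt-Nd6 made up 4.46% and 4.54% of mRNA reads in the controls and 6.06% and 5.32% with anti-CD93. mt-Nd5 made up 11.2% and 10.2% against 12.7% and 12.05%, and mt-Nd4 6.29% and 5.40% against 6.85% and 6.78%. For all 3 both anti-CD93 libraries were above both controls. mt-Co1 went the other way, with 43.4% and 47.8% in the controls and 39.7% and 42.0% with anti-CD93. mt-Nd1 did so by a small margin, with 10.8% and 10.6% against 9.996% and 10.4%. mt-Cytb (18.3% and 15.5% against 18.6% and 17.8%) and mt-Nd2 (4.93% and 5.44% against 5.53% and 5.09%) overlapped. Shares of 1 total depend on each other, and these shares were not tested. The controls lay close together in the share of mt-Nd6, although control IgG replicate 2 stood apart in the class shares. The shares are not adjusted for GC, which is lowest in mt-Nd6 (34.1%) and highest in mt-Co1 (39.9%) among the readable mRNAs. With the length and GC trend removed, mt-Nd6 (-0.02) was below mt-Nd5 (0.08), mt-Nd4 (0.03) and mt-Cytb (0.01). It was above mt-Nd2 (-0.225), mt-Co1 (-0.244) and mt-Nd1 (-0.264).

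**Figure D5:**
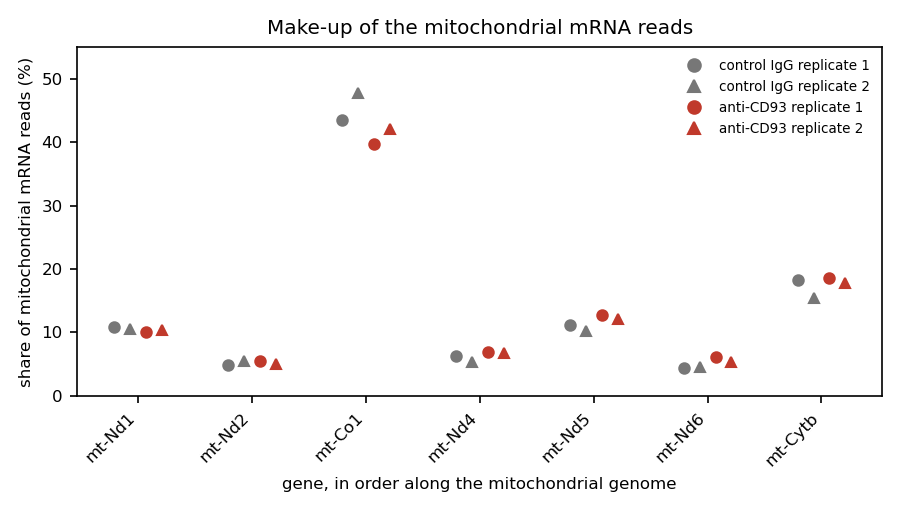
Share of mitochondrial mRNA reads (%) taken by each of the 7 readable mRNA genes in the 4 libraries, in order along the mitochondrial genome. mt-Nd4, mt-Nd5 and mt-Nd6 are higher in both anti-CD93 libraries and mt-Co1 and mt-Nd1 lower in both.

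The tRNAs were almost unread. Their genes are 59 to 75 bases long, shorter than 1 read, and 18 of the 22 lie within 5 bases of another gene on both sides. They held 228, 167, 276 and 203 reads in control IgG replicates 1 and 2 and anti-CD93 replicates 1 and 2, which is 0.00147% to 0.00186% of assigned reads. 10 of the 22 had 0 reads in every library: mt-Tw, mt-Tn, mt-Tc, mt-Ty, mt-Ts1, mt-Td, mt-Tr, mt-Ts2, mt-Tl2 and mt-Tt. Another 9 had some reads but failed the count filter, with at most 6 reads in a library: mt-Tf, mt-Tl1, mt-Ti, mt-Tq, mt-Tm, mt-Ta, mt-Tk, mt-Th and mt-Te. These 19 genes together held 14 and 0 reads in the controls and 18 and 11 with anti-CD93, so control IgG replicate 2 had none of them. Fragments this short and heavily modified are known to be lost in standard library preparation, so few reads say little about the amount of tRNA.

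3 tRNAs passed the filter, and their sequences are shown because they are the ones with values; capitals mark the anticodon.
mt-Tp, proline, chrM:15356-15422, minus strand: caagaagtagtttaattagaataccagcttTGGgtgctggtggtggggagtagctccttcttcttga
mt-Tv, valine, chrM:1025-1093, plus strand: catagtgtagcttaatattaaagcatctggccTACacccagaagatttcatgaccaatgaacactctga
mt-Tg, glycine, chrM:9391-9458, plus strand: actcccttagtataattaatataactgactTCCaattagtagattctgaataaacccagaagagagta
mt-Tp held most tRNA reads, 185 and 132 in the controls and 226 and 162 with anti-CD93, or 15.1 and 14.1 CPM against 12.8 and 11.8 CPM. It is the last annotated gene before the control region of the circle, with no annotated gene after it. Its log2 fold change was -0.25 ± 0.24 (SE) with adjusted p = 0.831 by edgeR. mt-Tv lies between the 2 rRNA genes with no base between them, and had 19 and 9 reads against 22 and 22, or a log2 fold change of 0.16 ± 0.62 (SE).

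mt-Tg lies between mt-Co3 and mt-Nd3. It had 10 and 26 reads in the controls and 10 and 8 with anti-CD93, so 1 control library, control IgG replicate 2, carried the difference. Its log2 fold change was -1.61 ± 0.80 (SE) with adjusted p = 0.812 by edgeR. Both anti-CD93 libraries were below both controls in CPM for mt-Tp and mt-Tg, 2 of the 18 tested mitochondrial genes, against 19.7% of all tested genes. Only the control libraries of mt-Tg met the count filter, so its direction is not independent of that filter. Per 1000 mRNA reads the tRNA reads numbered 3.28 and 3.73 in the controls and 2.25 and 2.42 with anti-CD93, and the groups did not overlap. Most of these tRNA reads were those of mt-Tp alone, counted without regard to strand. The mRNA share, by which the ratio divides, was itself higher in both anti-CD93 libraries.

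The nuclear genes that make and process these RNAs showed no call: in 17 lists, of nuclear genes for mitochondrial functions and of the nuclear copies, 0 members passed an adjusted p under 0.05 by edgeR, as with all genes tested. Of the 7 tested transcription genes, 5 were estimated higher and 2 lower with anti-CD93, with a median log2 fold change of 0.15 (0.01 without control IgG replicate 2 and 0.32 without control IgG replicate 1). Polrmt, the mitochondrial RNA polymerase, measured 18.03 and 35.9 CPM in the controls and 19.7 and 19.8 CPM with anti-CD93. The control that stood apart was the high one, and the other 3 libraries were nearly equal. Tfam, which packs mitochondrial DNA and opens its promoters, measured 21.3 and 18.5 CPM against 23.6 and 18.02 CPM. Tfb2m, the initiation factor, measured 6.93 and 8.46 CPM against 7.57 and 9.52 CPM. Both overlapped between the groups. Tefm, the elongation factor, overlapped at 2.61 and 1.18 CPM against 3.39 and 1.82 CPM. The terminator Mterf1a, with the smallest p of the list, measured 0.653 and 0.428 CPM against 1.41 and 1.16 CPM (adjusted p = 0.812 by edgeR). Mterf1a rested on few reads, 8 and 4 in the controls against 25 and 16 with anti-CD93. Only its anti-CD93 libraries met the count filter, so its direction is not independent of that filter.

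Among 21 tested genes for RNA processing and stability, 13 were estimated higher and 8 lower, with a median of 0.07 (0.02 without control IgG replicate 2 and 0.17 without control IgG replicate 1). Trmt10c, a subunit of the RNase P that cuts the 5′ ends of tRNAs, measured 11.99 and 7.17 CPM in the controls and 14.4 and 13.4 CPM with anti-CD93. Prorp, the nuclease subunit of the same enzyme, lay in the other direction, at 6.61 and 10.3 CPM against 4.58 and 5.96 CPM (adjusted p = 0.812 by edgeR). Neither group pair overlapped, and the 2 subunits of 1 enzyme were estimated in opposite directions. Elac2, which cuts the 3′ ends, measured 21.1 and 21.7 CPM against 19.2 and 18.2 CPM. Lrpprc, which protects the mRNAs, overlapped at 40.1 and 45.9 CPM against 44.97 and 41.3 CPM. Its partner Slirp had 1 read, in anti-CD93 replicate 2, and was not tested. Ptcd1, an RNA-binding protein, measured 13.2 and 21.95 CPM against 11.2 and 12.2 CPM (adjusted p = 0.812 by edgeR).

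With all 4 libraries the proteins of the mitochondrial ribosome were estimated mostly lower. Of the large subunit proteins of the mitochondrial ribosome 9 were estimated higher and 39 lower (median -0.17, with -0.11 without control IgG replicate 2 and -0.28 without control IgG replicate 1), and of the small subunit proteins 6 higher and 25 lower (median -0.27). The small subunit median turned to 0.05 without control IgG replicate 2 and was -0.45 without control IgG replicate 1. Mrpl38 measured 24.0 and 33.0 CPM in the controls and 18.9 and 19.2 CPM with anti-CD93 (adjusted p = 0.812 by edgeR). Mrps18a measured 21.2 and 24.2 CPM against 15.03 and 15.8 CPM (adjusted p = 0.812 by edgeR). In both genes the groups did not overlap, and both control libraries stood above. These 2 genes, Mrpl42 and Mrps16 had the smallest p-values of their lists, all with lower values. Translation factors had 3 estimated higher and 8 lower (median -0.19, with -0.08 and -0.38 without control IgG replicates 2 and 1 in turn), with the release factors Mtrf1 (3.75 and 5.78 CPM against 2.37 and 2.47 CPM) and Mtrf1l (7.02 and 5.03 CPM against 7.68 and 10.3 CPM) apart in opposite directions. rRNA modification and ribosome assembly had 6 higher and 13 lower (median -0.09), with a median of -0.02 without control IgG replicate 2 and -0.34 without control IgG replicate 1. tRNA modification had 7 and 7 (median 0.02), with the median turning to -0.07 without control IgG replicate 2 and at 0.06 without control IgG replicate 1. Aminoacyl-tRNA synthetases had 11 and 9 (median 0.05), with 0.02 and 0.07 in the same order. The 2 smallest p-values of these 3 lists belonged to Dhx30 (lower) and Gtpbp10 (higher), to Gtpbp3 (lower) and Nsun3 (higher), and to Mars2 (higher) and Sars2 (lower).

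The nuclear subunits that join the mitochondrial ones were estimated mostly lower with anti-CD93 when all 4 libraries were used. Complex I had 11 subunits higher and 25 lower (median -0.17), complex II, which has no mitochondrially encoded subunit, 0 and 4 (median -0.13), complex III 1 and 8 (median -0.23), complex IV 1 and 10 (median -0.24) and complex V 5 and 10 (median -0.10). Without control IgG replicate 2 the medians of complexes I to V were 0.05, -0.05, 0.05, 0.00 and 0.07, so that only complex II stayed below 0. They were -0.26, -0.25, -0.48, -0.45 and -0.25 without control IgG replicate 1. Ndufa8 of complex I measured 37.4 and 65.4 CPM in the controls and 33.2 and 29.6 CPM with anti-CD93, and Ndufs3 17.3 and 26.6 CPM against 15.9 and 14.1 CPM. Uqcr10 of complex III measured 17.6 and 21.2 CPM against 12.9 and 13.1 CPM, and Uqcrc1 65.2 and 104.7 CPM against 60.7 and 62.6 CPM. Cox5b of complex IV measured 72.0 and 122.0 CPM against 69.8 and 60.4 CPM, and control IgG replicate 2 was the highest library in each of these 5 genes. Cox8a (complex IV), Sdhb and Sdha (complex II) and Atp5k (complex V) were also below both controls in both anti-CD93 libraries, while Atp5d (complex V) overlapped. The difference between the nuclear and mitochondrial subunits of a complex was not tested. These and the other list medians are not adjusted for GC. With all 4 libraries the median of nuclear genes fell from 0.33 under 40% GC to -0.26 at 55% or more. The part of GC in the list medians was not tested.

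DNA replication genes had 6 estimated higher and 9 lower (median -0.10, but -0.01 without either control library), with Tk2 and Dna2 at the smallest p-values, both lower. Biogenesis regulators had 3 and 4 (median -0.15), and the median turned to 0.03 without control IgG replicate 2 and was -0.19 without control IgG replicate 1. Gabpa, a transcription factor of nuclear respiratory genes, measured 70.4 and 44.9 CPM in the controls and 77.2 and 81.6 CPM with anti-CD93, and Pprc1 overlapped. Other mitochondrial proteins outside the respiratory chain had 6 and 6 (median 0.01, with 0.05 and -0.02 without control IgG replicates 2 and 1 in turn), among them the outer membrane channel Vdac1, at 74.9 and 59.4 CPM against 90.7 and 82.2 CPM, and the import receptor Tomm22, at 23.9 and 28.6 CPM against 20.6 and 18.02 CPM. Of the 7 nuclear copies 6 were tested, and all 6 were estimated higher (median 0.52). Gm28439, the copy of mt-Nd4, measured 2.20 and 0.964 CPM in the controls and 4.24 and 2.62 CPM with anti-CD93, and Gm29216, the copy of mt-Co1, 3.59 and 1.39 CPM against 4.80 and 3.78 CPM. The median of the 6 copies was 0.35 without control IgG replicate 2 and 1.16 without control IgG replicate 1. Gm28439 is identical to mt-Nd4 over its length, so reads from within it cannot be told apart from those of the gene, while Gm29216 differs from mt-Co1 only at the 6 bases given above.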

How the data were processed

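The authors counted reads per gene with featureCounts 2.0.1 on a GENCODE M25 annotation of GRCm38, per the file headers and the submitters' processing notes, which also name STAR 2.7.5b and DESeq2 1.28.1. The deposited table holds raw counts, and a second deposited table held the same counts (0 of 221468 cells differed). Reads were paired and 150 bases long, per the labels' protocols, and the command in the file header has no paired or strand option, so mates were counted singly.

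The 16945 genes that filterByExpr retained (minimum count 10) were scaled by TMM and tested by the quasi-likelihood test of edgeR 4.0.16 (R 4.3.3, limma 3.58.1) with the group as the only term and robust estimation. The threshold was 0.05 after Benjamini-Hochberg adjustment. The script was tested on simulated data. Members and lists were chosen with earlier results of these data known. Named were all 37 members, Polrmt, Tfam, Tfb2m, Tefm, Lrpprc, Slirp, Elac2 and Trmt10c, and per list the members that passed (at most 5) or else the 2 with the smallest unadjusted p. Sequences came from GENCODE vM21 transcripts, which matched all 37 genes by name and length. The settings varied were the scaling, the count filter (none, or a minimum of 50), DESeq2 1.42.0, limma-voom, no robust estimation, halved counts, a replicate block, each library left out, and removal of each library's length and GC trend (mgcv 1.9.3). The readable mRNAs, the ratio over 4 mRNAs and the added reads of nuclear copies were chosen after the data were seen, as were the GC classes.

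Depth was 9364294 to 17813993 assigned reads per library.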

Additional observations from a re-analysis of the deposited data

How the results depend on the processing

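Under the other scalings (DESeq2 size factors, upper quartile, total reads, mitochondrial genes left out of the scaling) the median of the 13 mRNAs kept its direction, and 7 of 7 readable mRNAs were higher in every setting except trend removal. The number of genes called was 48 with no count filter, 5 with DESeq2, 14 with the replicate block, and 0 to 4549 with 1 library left out (4549 without control IgG replicate 1, 13 without control IgG replicate 2, 1 without anti-CD93 replicate 2). No member was called in these settings except without control IgG replicate 1.

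With 1 library left out, the median log2 fold change ranged from 0.208 to 0.674 for the mRNAs and from 0.0734 to 0.888 for the rRNAs, and the log2 difference in rRNA reads per mRNA read from -0.129 to 0.447. With the length and GC trend removed, the medians were -0.0168 for mRNAs and -0.0251 for rRNAs, and single genes turned to -0.00749 (mt-Rnr1), -0.0427 (mt-Rnr2), -0.264 (mt-Nd1), -0.225 (mt-Nd2), -0.244 (mt-Co1), -0.0237 (mt-Co2), -0.0168 (mt-Nd6) and -0.0984 (mt-Tv). The tRNA median, -0.25 over 3 genes, was 0.532 with no filter and 0.552 with DESeq2, which bring 9 further tRNAs into the test. With the trend removed it moved further from 0, to -0.46, with mt-Tp at -0.46 and mt-Tg at -2.68. With 1 library left out, mt-Tv ranged from -0.135 to 0.547, mt-Atp6 from -0.451 to 0.0564 and mt-Co3 from -0.297 to 0.38. Low genes turned with smaller changes: mt-Tv to -0.135 and -0.0249 without control IgG replicate 2 and anti-CD93 replicate 2; mt-Atp6 to 0.0564 without control IgG replicate 2 and 0.006 with the copies' reads added; mt-Co3 to 0.0323 (no filter), 0.00659 (DESeq2), 0.0241 (replicate block), 0.38 (without control IgG replicate 1), 0.0429 (without anti-CD93 replicate 2) and 0.201 (copies' reads added). The cause was not tested. The replicate block left the mRNA median at 0.427. Same-numbered libraries did not deviate together (correlation -0.02). With 2 libraries per group that value cannot show whether the numbers pair the libraries, and the labels give no pairing. Few reads limit the 6 low mRNAs and all tRNAs, and 2 libraries per group limit every comparison.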
